A study of Mus musculus with 8 samples.

Results

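The genes described here are 45 components of the machinery that loads, docks, fuses and recycles synaptic vesicles. They were chosen by name: every array probe whose gene name was one of the 45 was collected, 69 probes in all, and where a gene had several probes the one with the highest mean signal over the 8 arrays gave its value. All 45 were on the array, among 35513 named genes. Of these, 43 were among the 27120 genes that could be tested, because they were well above background on at least 2 arrays. The other 2, Syt2 and Syt12, were not well above background on any array.

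Neural stem and progenitor cells were grown as floating neurospheres from EB3 mouse embryonic stem cells, by way of embryoid bodies formed with Noggin, and total RNA was measured on 8 Agilent one-colour mouse arrays. Primary neurospheres (P0) and tertiary neurospheres (P2, dissociated and regrown 2 times) were each measured under 4 lentiviral conditions. These were a control shRNA against firefly luciferase, an shRNA against both Nr2f1 and Nr2f2, a control miRNA against lacZ, and miR-17 overexpression. Every culture received lentivirus at an MOI of about 25 when the embryoid bodies were dissociated, and FGF2 at 20 ng/ml. Each of the 8 combinations of condition and passage was measured once, with 50 ng of RNA, 6 days after plating from embryoid bodies (P0) or from secondary neurospheres (P2). Nr2f1 and Nr2f2, also called COUP-TFI and COUP-TFII, are nuclear receptors that act as transcription factors, and miR-17 is a microRNA of the miR-17-92 cluster. The labels do not say that the cultures were grown separately, so the p-values measure only the spread between these arrays.

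At a chemical synapse, transmitter is pumped into vesicles by transporters, the vesicles are docked and primed at the active zone, and the SNARE proteins of vesicle and plasma membrane zip together to fuse them. Synaptotagmins sense the calcium that triggers fusion, complexins hold the assembled SNAREs, and dynamin, amphiphysin and synaptojanin retrieve the membrane afterwards. Many of these proteins also serve secretion in endocrine cells and glia, and some are made before a neuron has formed a synapse.

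The sequences needed to read the values fall into 3 sets. The microRNA that was overexpressed is shown with its seed, bases 2 to 8, in capitals, because the seed is what pairs with target transcripts. It is the RefSeq mature sequence, at chr14:115043684-115043706 (+ strand) in GRCm38.p6. The labels name miR-17 without an arm, and the 5p arm is shown.
mmu-miR-17-5p: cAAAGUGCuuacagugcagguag
Next are 30 bases of the 60-base probes that stand for 3 release genes on this array and hold simple repeats, which are shown in capitals. Snap25 had no other probe, and for Cplx2 and Syn3 the repeat probe was the brightest and so gave the gene's value. A probe of Cplx2 without such a repeat is shown beside them. Coordinates are mm9, as listed in the scanner files; the repeat probe named Cplx2 is listed on chromosome 2, while the other Cplx2 probes are listed on chromosome 13.
Snap25 probe, chr2:136607709-136607768: CACACACACACACACACACAaagtggattt
Cplx2 repeat probe, chr2:31733377-31733436: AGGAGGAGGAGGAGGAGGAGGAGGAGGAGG
Cplx2 other probe, chr13:54485200-54485259: tccccactttgtatgatgcaaatgctaaga
Syn3 repeat probe, chr10:85586568-85586627: aaagagagagaaaagGAGAGAGAGAGAcag
The last set concerns Rab3c, whose probes also disagreed. The brightest probe and a neighbour that shares 54 bases with it moved alike, and a probe lying nearer the 3′ end of the transcript did not.
Rab3c brightest probe, chr13:110850524-110850583: atgttctacagagtgagttctaggatagca
Rab3c 3′ probe, chr13:110844454-110844513: ctgttaggtatttagtttgtgtgtgaattc
Neither Rab3c sequence met the rule used for repeats, and the gene context of all probes (exon, intron or UTR) was not analysed here.

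Levels below are log2 intensities relative to the 75th percentile of the same array, so a level of 0 sits at that percentile. Levels of different genes come from different probes and are not compared. Between 57.9% and 67.9% of spots per array were well above background, no spot was saturated, and the upper-quartile intensity was 530 to 1065. All 8 arrays lay on 1 slide, with the shRNA arrays in slide column 1 and the miRNA-vector arrays in column 2, so vector system and column cannot be told apart. P0 arrays lay in rows 1 and 2 and P2 arrays in rows 3 and 4, so passage and row cannot be told apart either. As a check of the labels, Nr2f1 intensity in the knockdown differed from that in the shRNA control by -42.2% at P0 and -55.6% at P2, and Nr2f2 intensity by -29.6% and -46.4%. All 8 genes of a neural stem and progenitor marker list were well above background on every array.

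The first comparison was passage: P2 against P0, fitted with condition as a block in limma over all tested genes. Of the 43 release genes, 7 passed an adjusted p of 0.05. Syn2, Sv2c and Syt9 rose from P0 to P2, by 4.91-fold, 11.4-fold and 3.79-fold. The 3 vesicular glutamate transporters, Slc17a6, Slc17a7 and Slc17a8, and Syt4 fell. Over all genes tested, 2.61% passed as higher and 2.36% as lower, 4.97% in either direction. The median gene moved by -0.21 on this scale (-0.02 after quantile normalization), while the median release gene moved by 0.18, so each change given here is 0.21 further up when read against the median gene.

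Marker lists moved with passage as well. The summed linear level of 11 astrocyte markers was 18 to 26.4 in the P0 arrays and 69.7 to 455 in the P2 arrays, and S100b and Ntsr2 were not well above background on any P0 array. For 11 oligodendrocyte lineage markers the ranges were 8.7 to 13.3 and 15.1 to 434, and for 9 cycling markers 81.7 to 122 and 21.1 to 90.4. For 6 pluripotency markers they were 10.3 to 27.1 and 3.11 to 5.01, though 1 of the 6 had a higher mean at P2. For 7 mesenchyme or endothelium markers they were 11.1 to 28.1 and 29.8 to 59.5, though 2 of the 7 had lower means at P2. For the 13 pan-neuronal markers found on the array the P0 range was 159 to 216. At P2 these neuronal markers summed to 234 and 160 in the shRNA arrays and 81.3 and 108 in the miRNA-vector arrays. For 7 neuroendocrine markers the ranges were 146 to 199 and 156 to 694, but 4 of the 7 had lower means at P2 and their median difference was -0.52. The difference of Cpe, a processing enzyme of peptide hormones, was 1.61. The part of these cell populations in the release gene values was not tested, and in bulk RNA fewer cells of a type and less RNA per cell cannot be told apart.

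**Figure D1:**
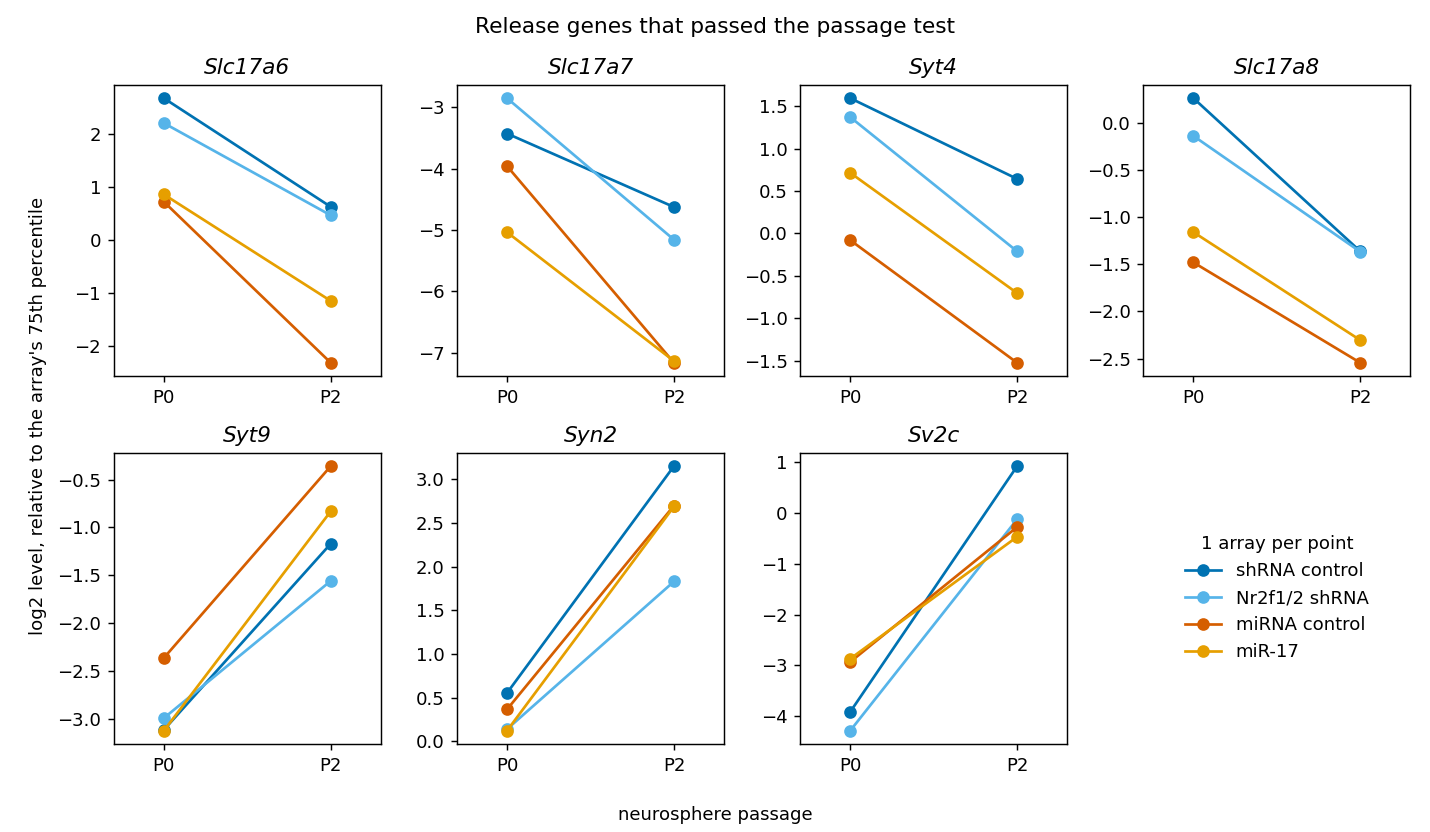
Log2 level (relative to the array's 75th percentile) of the 7 release genes that passed the passage test, at P0 and P2; each point is 1 array and each line joins the P0 and P2 arrays of 1 condition. Slc17a6, Slc17a7, Syt4 and Slc17a8 are lower at P2 in all 4 conditions, and Syt9, Syn2 and Sv2c are higher in all 4.

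Transmitter loading was the role with the most genes that fell: 3 of its 6 genes passed as lower, none as higher, and the median change was -1.01. Slc17a6 encodes VGLUT2, which fills vesicles with glutamate in many subcortical neurons. Its P0 levels were 2.67 in the shRNA control, 2.20 in the knockdown, 0.72 in the miRNA control and 0.86 with miR-17. The P2 levels, in the same order, were 0.62, 0.46, -2.32 and -1.15. All P2 arrays lay below all P0 arrays, and the miRNA-vector arrays lay below the shRNA arrays at each passage. The fall was -2.21 ± 0.27 (SE; limma adjusted p = 0.0361), or 4.62-fold.

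Slc17a8 encodes VGLUT3, found in neurons that release glutamate beside another transmitter. Its P0 levels were 0.26, -0.14, -1.48 and -1.16, and its P2 levels -1.36, -1.37, -2.54 and -2.31 (order as above). Every condition fell, but the groups overlapped, because the miRNA control at P0 lay below the shRNA arrays at P2. The change was -1.27 ± 0.19 (limma adjusted p = 0.0419). A further Slc17a8 probe, well above background on 3 arrays only, gave a difference of 1.23 in the other direction, and with the mean of the gene's probes the change was -0.02 (limma adjusted p = 0.953).

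Slc17a7, which encodes the cortical vesicular glutamate transporter VGLUT1, was near the limit of detection. It was well above background on 3 of 4 P0 arrays and 2 of 4 P2 arrays. Its P0 levels were -3.42, -2.85, -3.96 and -5.03, and its P2 levels -4.62, -5.16, -7.16 and -7.13. The groups overlapped, and both miRNA-vector arrays at P2 were at background. The change, dim arrays included at their own signal, was -2.20 (limma adjusted p = 0.0428), and with normexp background correction it was -0.87. With the dim P2 arrays at their bounds, P0 was at least 2.36-fold higher.

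The 3 genes of GABA synthesis and loading did not pass. Slc32a1, which encodes the vesicular GABA transporter, had P0 levels of 4.14, 3.26, 4.08 and 4.41 and P2 levels of 4.21, 3.65, 2.03 and 2.98. Gad1, which encodes the GABA-synthesizing enzyme GAD67, had P0 levels of 2.35, 1.28, 1.60 and 1.51 and P2 levels of 2.59, 2.36, -0.10 and 1.22. For Gad2, which encodes the related enzyme GAD65, they were 2.38, 1.53, 1.87 and 2.22 at P0 and 2.57, 2.21, 0.41 and 0.44 at P2. In all 3 genes the shRNA arrays were higher at P2 and the miRNA-vector arrays lower, and the passages overlapped. Their passage changes were -0.76, -0.17 and -0.59 (limma adjusted p = 0.278, 0.805 and 0.392). A dimmer Slc32a1 probe differed by -0.05.

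Among the synaptotagmins, 1 of 9 tested genes rose and 1 fell. Syt9 encodes a fast calcium sensor for fusion. At P0 it read -3.12, -2.99, -2.37 and -3.13, and at P2 -1.17, -1.56, -0.36 and -0.83. No P2 array overlapped a P0 array, and the change was 1.92 ± 0.22 (limma adjusted p = 0.0342), or 1.32 with normexp background correction. Syt4, a synaptotagmin with little calcium binding of its own, went the other way, from 1.60, 1.37, -0.08 and 0.72 to 0.64, -0.21, -1.53 and -0.70. It was lower in all 4 conditions although the groups overlapped, and the change was -1.35 ± 0.20 (limma adjusted p = 0.0395). Syt7, a slow, high-affinity calcium sensor, read -3.07, -3.53, -4.17 and -2.84 at P0 and -1.50, -2.84, -0.34 and -0.06 at P2. Its difference of 2.22 ± 0.55 was larger than that of Syt9, but its arrays were more spread and it did not pass (limma adjusted p = 0.0656). Syt1, the main calcium sensor of fast release, had a passage difference of 0.65 and an adjusted p of 0.388 in limma, with 2 conditions higher at P2 and 2 lower.

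Vesicle membrane proteins and synapsins gave 2 risers, no gene that passed as lower, and a positive difference in 7 of 9. Sv2c, a vesicle glycoprotein of restricted expression in the adult brain, read -3.91, -4.28, -2.93 and -2.87 at P0 and 0.93, -0.12, -0.27 and -0.47 at P2. All P2 arrays were above all P0 arrays, and the change was 3.52 ± 0.48 (limma adjusted p = 0.0373). With normexp background correction it was 2.54 and with the mean of its probes 2.50. Its other probes, at lower signal, differed by 2.34 and 1.65 in the same direction. Syn2 encodes synapsin II, which tethers vesicles in the reserve pool. It read 0.55, 0.14, 0.37 and 0.12 at P0 and 3.15, 1.83, 2.70 and 2.69 at P2, again with no overlap, and changed by 2.30 ± 0.23 (limma adjusted p = 0.0307). The knockdown array was the lowest at P2. The further Syn2 probe differed by 1.68.

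The remaining synapsins did not pass. Syn1, the synapsin of most mature synapses, had a difference of 0.51 (limma adjusted p = 0.219). Syn3, a synapsin of early neurons, read -1.78, -1.17, 0.13 and 0.80 at P0 and -1.55, -1.68, -2.20 and -2.14 at P2, from the GA-repeat probe shown above. Only its miRNA-vector arrays separated by passage. The change was -1.39 (limma adjusted p = 0.144), and the 2 other Syn3 probes that were well above background differed by -0.31 and -0.09. Sv2a, the vesicle protein that binds levetiracetam, was higher at P2 in all 4 conditions by 1.16 ± 0.23 and just missed (limma adjusted p = 0.0541).

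No SNARE, Rab3 or active zone gene passed. Vamp1 and Vamp2, the vesicle SNAREs, had differences of 1.10 and 0.88 with no overlap between passages (limma adjusted p = 0.0602 and 0.0694), and Stx1a, their plasma membrane partner, one of -0.15 (0.724). Rab3b, a GTPase of docked vesicles, differed by 0.92 (limma adjusted p = 0.0524). Unc13a encodes the priming factor Munc13-1. It read -3.04, -3.30, -2.88 and -2.92 at P0 and -4.0, -3.77, -6.52 and -4.48 at P2, where the miRNA control was not well above background. All P2 arrays were below all P0 arrays, P0 was at least 2.42-fold higher with that array at its bound, and the gene did not pass (limma adjusted p = 0.0958). With normexp background correction its difference was -0.76 and passed (limma adjusted p = 0.0364). Bsn and Pclo, the giant scaffold proteins bassoon and piccolo, had differences of 0.16 and -0.04. The dimmer Pclo probes disagreed. The one well above background on all 8 arrays differed by -0.08, and those well above background on 6 and 4 arrays by 3.37 and 2.66. Cplx1, a complexin, had 1.17 (limma adjusted p = 0.0713). The 4 endocytosis genes were all positive, from 0.22 in Dnm1, the neuronal dynamin, to 1.82 in Amph, which encodes amphiphysin, and none passed (limma adjusted p = 0.064 for Amph).

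The passage differences of Syt3, Syt5, Syt6, Syt11, Syt13, Syp, Sypl, Synpr, Rab3a, Rims1, Rims2, Unc13b, Snap91 and Synj1, none of which passed, ranged from -0.36 in Unc13b to 1.09 in Syt3, and that of Sv2b was -1.16 (limma adjusted p = 0.158).

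Over the 43 genes, P0 and P2 arrays did not overlap for 10 genes higher at P2 and 4 lower, or 23.3% and 9.3%. The corresponding shares of all tested genes were 9.3% and 15.2%. The 4 lower were Slc17a6, Unc13a, Rab3c and Cplx2. Of these, Cplx2 was read on its repeat probe, the probes of Rab3c disagreed, and Unc13a was not well above background in the P2 miRNA control. A single direction in all 4 conditions was seen in 23 of 43 release genes (53.5%) and in 49.4% of all genes. The calls depended on which arrays were included: without either array of the shRNA control, the miRNA control or miR-17 no release gene and none of the 27120 genes passed. Without either knockdown array 12 release genes did, beside 17.6% of all genes. With normexp background correction 18 passed, with a filter on all 8 arrays 14, and with a trended prior 14, where 25.9%, 17.7% and 15.9% of all genes passed. Quantile normalization left 5 and ended the calls of Slc17a7 and Slc17a8 (limma adjusted p = 0.063 and 0.0579). Without the condition block 9 passed (14.4% of all genes), of which 8 were higher and 1 lower, and 3 of the 7 were among them.

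**Figure D2:**
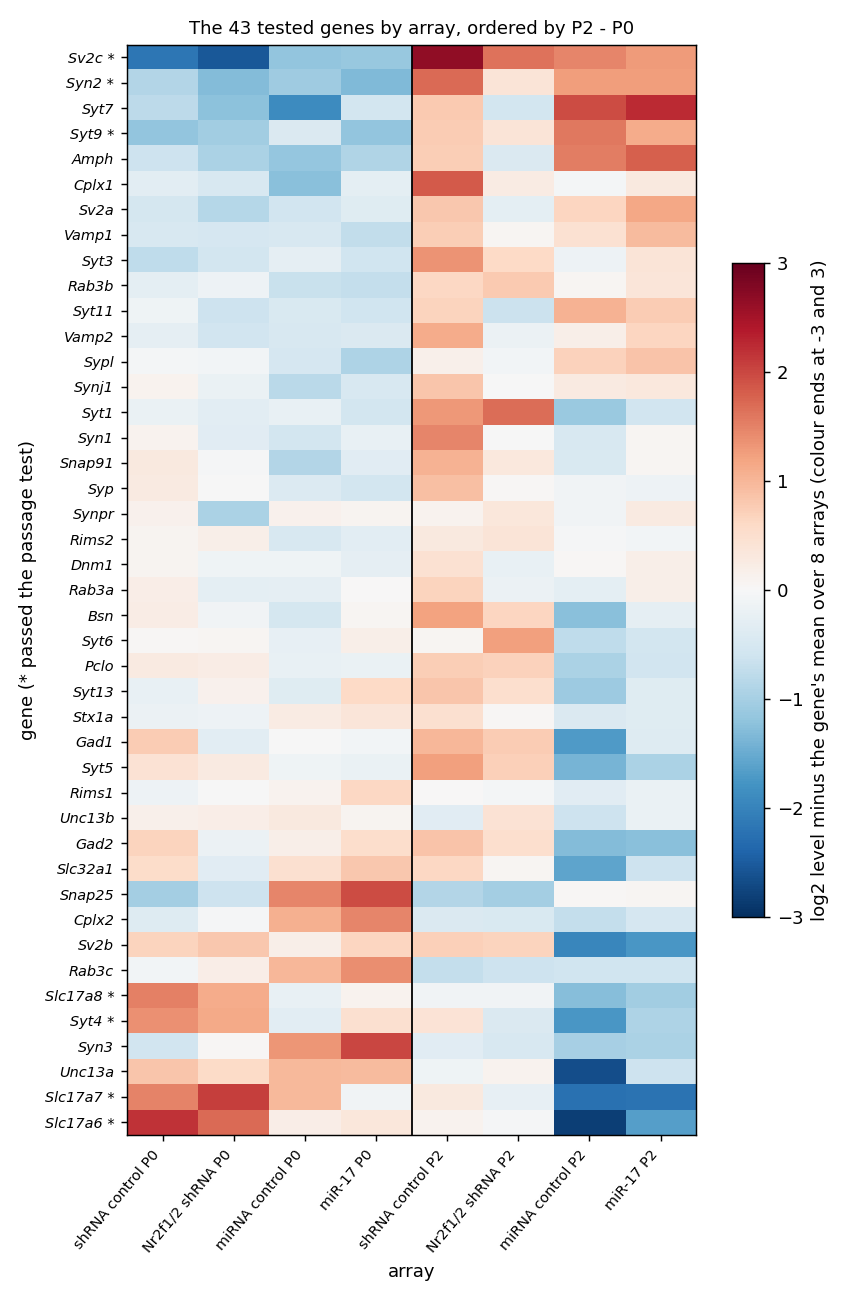
The 43 tested release genes (rows, ordered by the P2 minus P0 difference, largest rise at the top) in the 8 arrays (columns, P0 left and P2 right of the line); colour is the log2 level minus the gene's own mean over the 8 arrays. Sv2c, Syn2, Syt7 and Syt9 form the top rows and Slc17a6 and Slc17a7 the bottom rows, and a middle band that includes Gad1, Gad2 and Slc32a1 is lowest in the miRNA-vector arrays at P2.

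The passage change was then compared between the vector systems, by a passage-by-vector-system term in limma that was added after the values were seen. For 6 release genes the change was lower in the miRNA-vector arrays than in the shRNA arrays with an adjusted p under 0.05, and for none was it higher. The share of all tested genes that passed, in either direction, was 8.56%. That share was not split by direction. Gad2 changed by 0.19 in the shRNA control and 0.68 in the knockdown, but by -1.46 in the miRNA control and -1.78 with miR-17. The difference was -2.05 ± 0.33 (SE; limma adjusted p = 0.0419). Slc32a1 changed by 0.07, 0.39, -2.05 and -1.43 in the same order, a difference of -1.97 ± 0.35 (limma adjusted p = 0.047). Its dimmer probe, well above background on all 8 arrays, read -2.86, -3.24, -2.26 and -1.97 at P0. At P2 that probe read -2.21, -3.12, -2.73 and -2.45. The directions were the same, with smaller falls in the miRNA-vector pairs.

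Sv2b, a vesicle glycoprotein related to Sv2c, changed by 0.05 and -0.14 in the shRNA pairs and -2.13 and -2.40 in the miRNA-vector pairs. The difference was -2.22 ± 0.29 (limma adjusted p = 0.0337). With normexp background correction it was -0.95 and did not pass (limma adjusted p = 0.074). The miRNA control at P2 read -4.86, where the lowest level well above background on that array was -5.0. Sv2c rose in all 4, by 4.84 and 4.17 against 2.66 and 2.40, and this difference of -1.97 also passed (limma adjusted p = 0.0477). Syn3 and Cplx2 passed too (limma adjusted p = 0.0437 and 0.0482), on their repeat probes. With repeat probes left out their differences were -1.19 and -0.39 (limma adjusted p = 0.099 and 0.434), Sv2b and Gad2 still passed, and Slc32a1 and Sv2c did not (limma adjusted p = 0.051 and 0.0517). Leaving out either array of the knockdown, the miRNA control or miR-17 ended all 6 calls, and leaving out either shRNA control array left 3.

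The signs of the same pair differences, from the same arrays, were also counted and are not separate evidence. In 10 of 43 release genes (23.3%) both shRNA pairs were higher at P2 and both miRNA-vector pairs lower, against 5.37% of all tested genes, and no release gene showed the reverse, against 8.19%. The 10 were Syt1, Syt5, Syt6, Syt13, Stx1a, Bsn, Pclo, Slc32a1, Gad1 and Gad2. Syt1, for example, changed by 1.49 and 2.01 in the shRNA pairs and by -0.87 and -0.02 in the miRNA-vector pairs. Pclo is counted on the probe used. On a dimmer Pclo probe the level went from -4.28 to -2.17 in the miRNA control and from -4.79 to -2.01 with miR-17. As given above, the pan-neuronal marker sums at P2 were also lower in the miRNA-vector arrays.

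**Figure D3:**
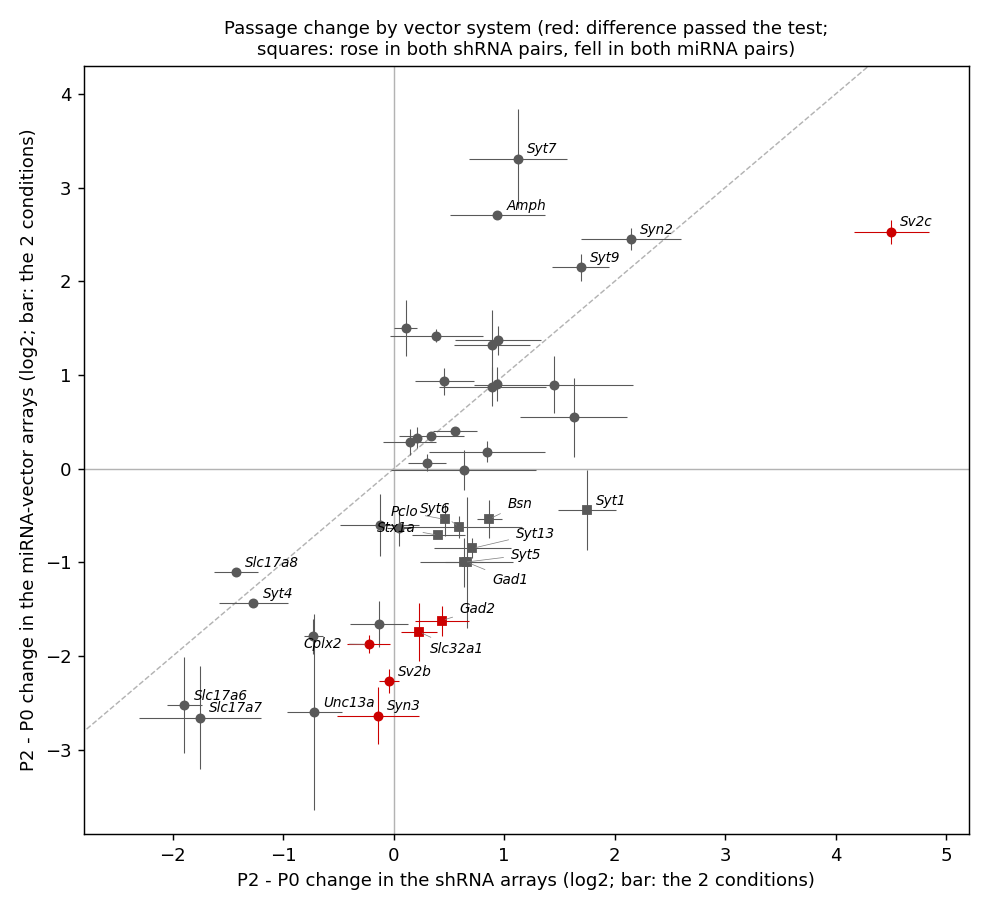
Passage change (P2 minus P0, log2) of the 43 release genes, as the mean of the shRNA control and knockdown pairs (horizontal) and of the miRNA control and miR-17 pairs (vertical); bars reach to the 2 conditions and the dashed line marks equal change. The 6 red genes passed the test of the difference, and the 10 squares rose in both shRNA pairs and fell in both miRNA-vector pairs.

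The controls were also set against each other, on arrays already used above. At P2 the miRNA control was lower than the shRNA control by at least 2-fold in 18 of 43 release genes and higher in 1, with a median difference of -0.93. Of all tested genes, 10.8% were lower and 9.21% higher by that much. At P0, 5 were lower and 4 higher (4.09% and 12.4% of all genes), with a median of -0.31. Of the 4 higher, Snap25 (2.47), Syn3 (1.91) and Cplx2 (1.46) were read on repeat probes. With such probes left out the count in either direction was 6 instead of 9. The remaining gene of the 4 was Rab3c (1.08). Its 3′ probe was lower in the miRNA control than in the shRNA control at P0, at 0.73 against 1.65.

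Knockdown of Nr2f1 and Nr2f2 was compared with the shRNA control over both passages. No release gene (adjusted p of at least 0.999) and none of the 27120 tested genes passed in limma. Without adjustment 2 release genes had p under 0.05, and 517 of all tested genes, 1.91%. The change of the knockdown effect between passages passed for no release gene or other gene either, with no release gene and 1072 of all tested genes at an unadjusted p under 0.05. What follows compares 1 array with 1 array and has no test.

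At P2 the knockdown array lay below its control in 35 of 43 release genes (81.4%, against 45.7% of all tested genes), with a median difference of -0.44. The difference reached 2-fold in 9 that were lower and 1 that was higher, where 8.92% of all tested genes were lower and 7.17% higher by that much. The 9 were Cplx1, Syn1, Syt7, Syn2, Syt11, Vamp2, Amph, Sv2a and Sv2c, with differences of -1.59 to -1.04. Cplx1 read 0.72 in the P2 control and -0.86 in the P2 knockdown, and its levels on the other arrays were -1.45 and -1.59 (shRNA, P0), -2.38 and -1.41 (miRNA control and miR-17, P0) and -1.18 and -0.82 (miRNA control and miR-17, P2). The P2 shRNA control was the highest of the 8 arrays. Syn1 read 3.31 in that control and 1.82 in the knockdown, and 1.28 to 1.94 on the other 6 arrays, so that here too the control array stood above the rest.

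By role, the P2 knockdown array was lower in all 4 SNARE genes, all 4 endocytosis genes, all 6 transmitter genes and 8 of 9 vesicle membrane genes and synapsins, but in 1 of 3 Rab3 genes and 5 of 8 active zone genes and complexins. The vesicle membrane group had the lowest median, -0.85. These counts rest on the probe used for each gene. Rab3c differed by 0.10 on that probe and by -0.84 on its 3′ probe. Snap25 (-0.12), Syn3 (-0.14) and Cplx2 (-0.02) were read on repeat probes. On the same pair of arrays, all 11 astrocyte markers and 10 of 11 oligodendrocyte lineage markers were lower in the knockdown (summed levels 69.7 against 181, and 15.1 against 145). All 9 cycling markers were higher (90.4 against 23.2), and the pan-neuronal sum was 160 against 234, with 7 of 13 of those markers lower. The part of these in the release gene values was not tested.

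Syt6 and Unc13b had the highest P2 differences. Syt6, a synaptotagmin outside the fast calcium sensors, read 1.34 in the P2 knockdown and 0.18 in its control, and -0.65 to 0.29 on the other 6 arrays, so the knockdown array was the highest of the 8, above its control by 1.16, or 2.24-fold. Its dimmer probe differed by 1.61 in the same comparison. Unc13b, which encodes Munc13-2, read 3.22 against 2.44, and 2.15 to 3.08 elsewhere.

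The letters AGGTCA, the core element that nuclear receptors of this family bind, were searched on both strands in RefSeq promoters (GRCm38.p6) that run from 250 bases before to 50 after a transcript start. They were found in 16.3% of all 32851 promoters, and in 4 of the 50 promoters that matched 36 of the release genes. The 4 belong to Syt1, Syt2 and Syt6. Overlapping Syt6 promoters hold the same match, which was counted once for each, and a further Syt6 promoter holds none. Syt2 was not well above background on any array. The 250 bases before the first Syt6 start, chr3:103574995-103575244 (+ strand), are shown because Syt6 was the release gene that was at least 2-fold higher in the knockdown; the match, 172 bases before the start, is in capitals.
Syt6 promoter: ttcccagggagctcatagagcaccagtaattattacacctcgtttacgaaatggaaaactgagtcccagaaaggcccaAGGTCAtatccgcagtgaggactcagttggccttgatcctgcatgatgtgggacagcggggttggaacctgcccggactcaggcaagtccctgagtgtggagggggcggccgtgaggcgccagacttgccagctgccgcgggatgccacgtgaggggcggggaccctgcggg
A match to these letters is a description of the sequence, and binding was not measured.

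At P0 the knockdown differences were smaller. They ranged from -1.08 in Synpr, which encodes the vesicle protein synaptoporin, to 0.61 in Syn3. The Syn3 value came from its repeat probe, and its other probes well above background differed by 0.02 and 0.18. At 2-fold, 2 genes were lower (0.634% of all tested genes) and none higher (1.61%). Synpr read -2.08 in the knockdown and -0.995 in the control, and -1.22 to -0.79 on the other arrays. Gad1, with the levels given above, differed by -1.07 (-52.5%). Slc32a1 and Gad2 were lower as well, at -45.7% and -44.6%, so that the 3 GABA genes were among the release genes with the lowest differences. Slc17a7 was higher by 0.58, at levels near background. On the same pair of arrays all 13 pan-neuronal markers were lower in the knockdown (summed level 169 against 215), whose part in these values was not tested. Counted by sign alone, 25 of 43 release genes (58.1%) were lower in the knockdown at both passages, against 27.1% of all tested genes.

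**Figure D4:**
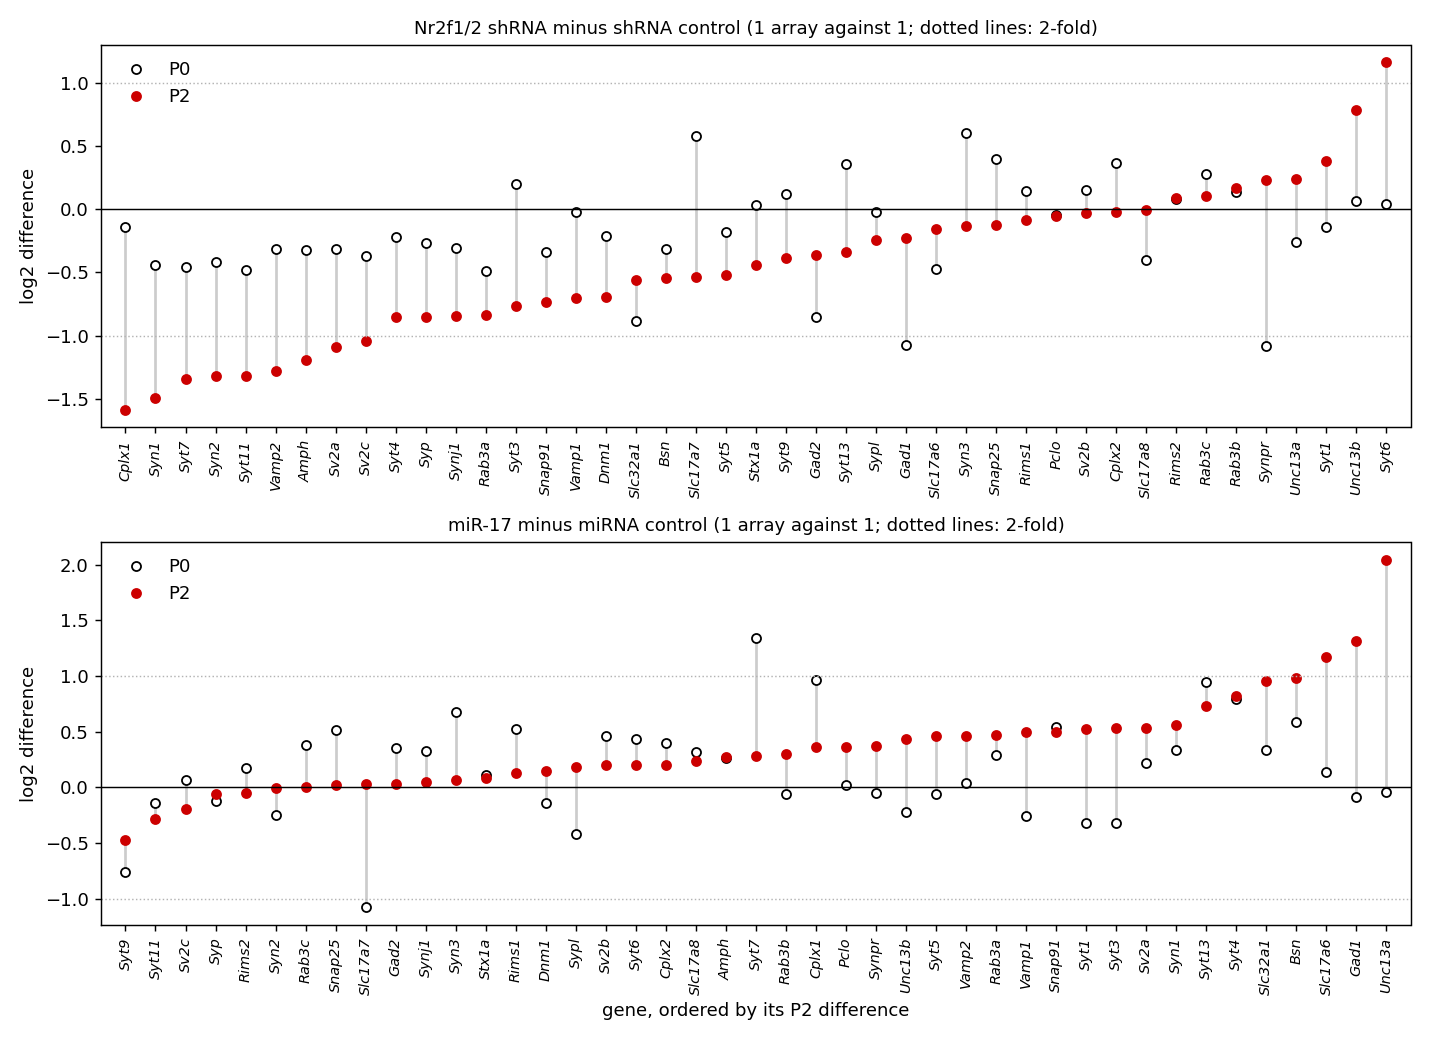
Log2 difference of each tested release gene between the Nr2f1/2 shRNA array and the shRNA control array (top) and between the miR-17 array and the miRNA control array (bottom), at P0 (open) and P2 (filled); dotted lines mark 2-fold. In the top panel 35 of 43 filled points lie below 0, and in the bottom panel 36 of 43 lie above 0; the highest, Unc13a, is measured against a control array at background.

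For overexpression of miR-17 over both passages, no release gene (adjusted p of 1) and none of the 27120 tested genes passed in limma. At an unadjusted p under 0.05 there were 1 release gene, Syt4, and 269 of all tested genes (0.992%). The change of the miR-17 effect between passages passed for no release gene and no other gene. There, no release gene and 294 of all genes had an unadjusted p under 0.05. In the single arrays at P2, 36 of 43 release genes were higher with miR-17 than in the miRNA control (83.7%, against 48.5% of all tested genes), with a median difference of 0.28. Only Gad1 and Slc17a6 reached 2-fold, by 1.31 and 1.17, where 1.47% of all tested genes were that much higher and 0.874% that much lower. For both genes the P2 miRNA control was the lowest of the 8 arrays. Unc13a was higher by at least 1.44-fold, its control being at background. The lowest differences were -0.47 in Syt9 and -0.28 in Syt11, a synaptotagmin with little calcium binding, which read 5.67 with miR-17 and 5.95 in its control, and 4.26 to 5.58 on the other arrays. On the same pair of arrays 12 of 13 pan-neuronal markers were higher with miR-17 (summed level 108 against 81.3), whose part in these values was not tested.

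At P0, Syt7 was higher with miR-17 by 1.34, or 2.53-fold, and no other release gene reached 2-fold (3.12% of all tested genes were that much higher and 1.27% lower). Cplx1 followed, with 0.97. A dimmer Synj1 probe, well above background on all 8 arrays, differed by 1.07, against 0.33 on the probe used. The miRNA control level of Syt7 was -4.17, where the lowest level well above background on that array was -4.86. The other Syt7 probe, well above background on 3 arrays only, differed by -0.24. The lowest measured differences were -0.76 in Syt9 and -0.42 in Sypl, a synaptophysin-like protein found in many tissues. Sypl read 1.10 in the miRNA control and 0.68 with miR-17 at P0, 1.54 and 1.52 in the shRNA pair at P0, and 1.76, 1.52, 2.30 and 2.48 at P2. Syt9 was thus the member with the lowest measured difference at both passages. Slc17a7 was lower with miR-17 at P0 by at least 1.92-fold, its miR-17 array being at background. In 24 of 43 release genes (55.8%) both passages were higher with miR-17, against 27.5% of all tested genes. All 13 pan-neuronal markers were higher with miR-17 at P0 (summed level 216 against 159), and their part was not tested. Knockdown and miR-17 arrays have separate controls.

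The probes printed above bear on 4 genes. Cplx2, which encodes a complexin, read 6.14, 6.50, 7.59 and 7.99 at P0 and 6.10, 6.08, 5.82 and 6.02 at P2 on its AGG-repeat probe, a change of -1.05 with the miRNA-vector arrays highest at P0. The probe without the repeat read 3.58, 3.21, 3.31 and 3.90 at P0 and 4.22, 4.09, 3.87 and 4.08 at P2, a difference of 0.57 in the other direction. Probes of other names that share the repeat were counted where they met the repeat rule themselves and were well above background on at least 2 arrays. Of 61 such probes, 58 were lower at P2, with a median of -1.19, and 58 were higher in the miRNA control than in the shRNA control at P0, against 55.5% of all tested genes.

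Snap25, the plasma membrane SNARE, has the CA-repeat probe only. It read 4.41, 4.80, 6.88 and 7.39 at P0 and 4.53, 4.41, 5.46 and 5.48 at P2, with the miRNA-vector arrays above the shRNA arrays at each passage. Of 67 probes of other names that share its repeat, counted in the same way, 67 were lower at P2 and 66 higher in the miRNA control at P0, with medians of -0.99 and 2.89 against -0.90 and 2.47 for the Snap25 probe. For the Syn3 repeat probe the counts were 30 and 29 of 31. How much of these 3 genes' signal came from their own transcripts was not tested.

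Rab3c, a GTPase of synaptic vesicles, read 5.88, 6.16, 6.96 and 7.34 at P0 and 5.24, 5.34, 5.36 and 5.36 at P2 on its brightest probe, a difference of -1.26 that did not pass (limma adjusted p = 0.0614). Its 3′ probe read 1.65, 0.94, 0.73 and 1.66 at P0 and 2.67, 1.84, -0.41 and 1.09 at P2, a difference of 0.05.

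**Figure D5:**
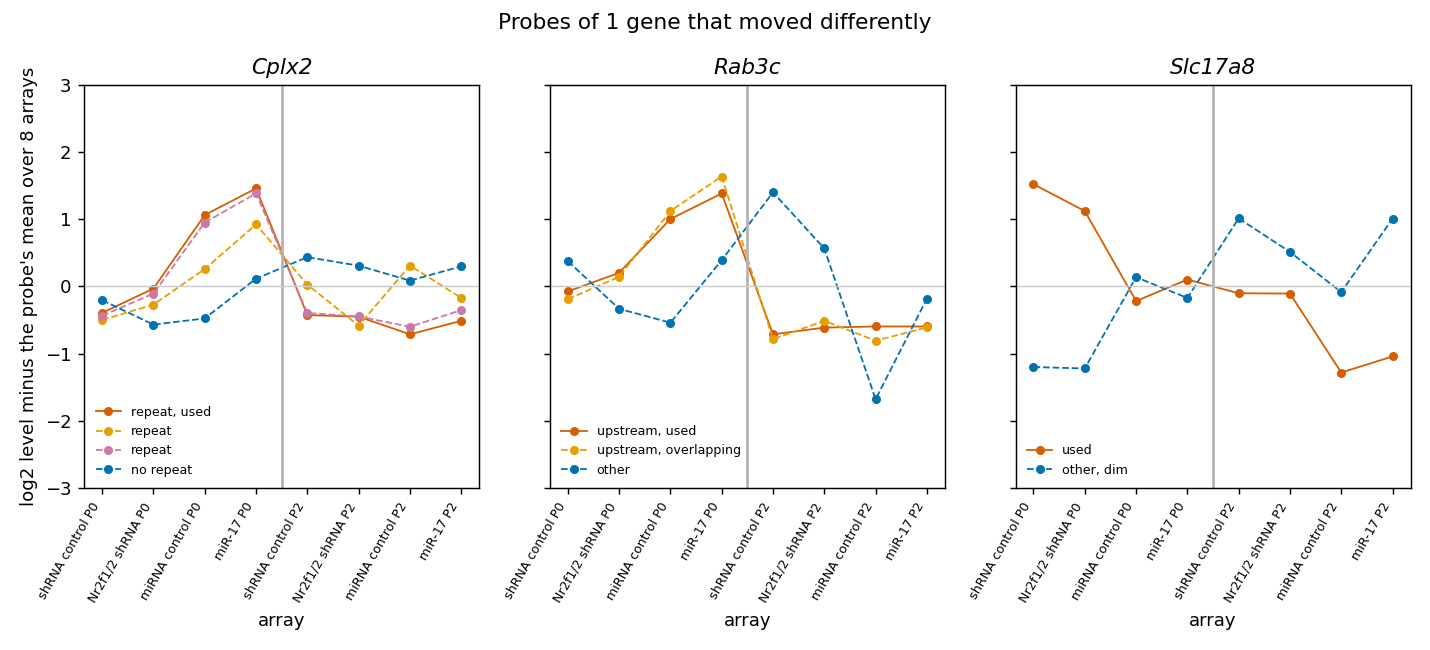
Log2 level of each probe of Cplx2, Rab3c and Slc17a8 minus that probe's own mean over the 8 arrays (vertical), in the P0 arrays (left of the line) and P2 arrays (right); solid lines are the probes that gave the gene's value. For Cplx2 the repeat probe used falls by 1.05 from P0 to P2 while the probe without the repeat differs by 0.57 the other way, and for Slc17a8 the used probe falls by 1.27 while the dim probe differs by 1.23 the other way.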

How the data were processed

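Total RNA of 8 cultures was hybridised with Cy3 to 1 Agilent array each. Images were read with Agilent Feature Extraction 10.7.3.1, per the submitters' processing notes. The deposited scanner files give an intensity per spot, background-subtracted and detrended per the file headers. A deposited table holds signal per probe, which is the same intensity over a constant for each array; the basis of the constant is not given in the sources at hand.

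Control spots and 1104 outlier spots were left out. The log2 intensity was averaged per probe after subtracting the array's 75th percentile. A gene was tested if well above background on at least 2 arrays. limma 3.58.1 in R 4.3.3 was fitted over 27120 genes with condition and passage (3 residual degrees of freedom, 2.19 prior), with interactions (1 and 3.03), and with passage by vector system (2 and 2.48). P-values are two-sided with Benjamini-Hochberg adjustment, and 0.05 was the threshold. The condition pairs the P0 and P2 arrays by label. The scripts were tested on simulated data. Single arrays were compared with no test and counted at 2-fold. For "at least" values, a dim array on the lower side of a passage comparison, or a dim array of a pair, was set to the higher of its own signal and the lowest signal well above background on that array.

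A repeat was called for a tandem unit of 1 to 6 bases over at least 18 bases, or a run of 12 bases found in at least 10 probes of other names, which took in 2336 of 55681 probes and 5 of the 69 here. Coordinates of probes are mm9 per the file headers. Promoters and the miRNA are RefSeq sequences in GRCm38.p6.

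The genes and lists were chosen with earlier results of these data known. Named in full are genes that passed, the 4 highest and 4 lowest by passage, the 2 highest and 2 lowest measured in each knockdown and miR-17 comparison, and the transmitter genes; the others were named after their values were seen. Alternatives were the background correction, normalization, probe choice, filter, prior, block, fold limit, leaving out each array, and the authors' table. The number of arrays limits the precision.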

Additional observations from a re-analysis of the deposited data

Results flagged for a closer look

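In 10 release genes both shRNA pairs were higher at P2 than at P0 and both miRNA-vector pairs lower. The difference in passage change, miRNA-vector minus shRNA, was -2.19 for Syt1, -1.63 for Syt5, -1.22 for Syt6, -1.56 for Syt13 and -1.11 for Stx1a. It was -1.40 for Bsn, -1.002 for Pclo, -1.97 for Slc32a1, -1.66 for Gad1 and -2.05 for Gad2. A dimmer Pclo probe rose in both miRNA-vector pairs. Of the 10, Slc32a1 and Gad2 passed the test of the difference (limma adjusted p = 0.047 and 0.0419). For the other 8 the limma adjusted p was 0.0525 to 0.158. The vector system cannot be told apart from the slide column.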

How the results depend on the processing

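Passage gave 7 release genes (3 higher, 4 lower). The count was 18 (12 higher, 6 lower) with normexp, 14 (10 higher) with a filter on all 8 arrays, 14 (9 higher) with a trended prior (25.9%, 17.7% and 15.9% of all genes, against 4.97%), and 0 (0 higher, 0 lower) in the control conditions alone. Quantile normalization gave 2 lower and the mean of a gene's probes 5 higher. Without the condition as a replicate block there were 8 higher and 1 lower. Leaving out 1 array moved the count between 0 and 12 (0 to 8 higher, 0 to 4 lower) and that of all genes between 0 and 4783. The authors' table, no filter, and leaving out repeat probes each gave 7. The limma adjusted p of the 7 genes reached 0.228 in these settings, and 0.953 for Slc17a8 with the mean of its probes. In no setting did a gene that passed in the main fit change direction. The vector-system difference gave 6 release genes, 13 with normexp, 4 with quantile normalization, 2 without repeat probes, and 0 to 3 with 1 array left out.

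Knockdown and miR-17 effects over both passages gave 0 in every setting run, and their interactions with passage 0 in the 3 alternatives run. Single-array counts at 2-fold were 2 (knockdown P0), 10 (knockdown P2), 1 (miR-17 P0), 2 (miR-17 P2), and between the controls 9 (P0) and 19 (P2). At 1.5-fold they were 5, 19, 7, 6 and, for the controls at P0, 17. At 3-fold they were 0, 1, 0, 0 and 5. With normexp, knockdown P0 gave 1, miR-17 P0 0 and miR-17 P2 1. Quantile normalization gave 4 for miR-17 P0. The mean of a gene's probes gave 1 for knockdown P0 and 4 for the controls at P0. The vector-system test, its alternatives and the repeat rule were chosen after seeing the data. Signal near background limits Slc17a7, Unc13a and, in the miRNA control at P2, Sv2b. With 1 array per group, every knockdown and miR-17 value at a single passage is without a test. The cause of these differences between settings was not tested.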

Other observations

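A list of 82 other presynaptic genes, 77 of them tested, was read beside the 45. From P0 to P2, 7 passed as higher and 1 as lower in limma, with a median of 0.14. Of all tested genes, 2.61% passed as higher and 2.36% as lower, with a median of -0.21. The genes that rose were Cadps2 (2.46 on the log2 scale), a priming factor for dense-core vesicles, Rab27b (2.01), a GTPase of secretory vesicles, and Apba1 (1.87), an adaptor that binds Munc18. The clathrin light chain Cltb (1.86), the endophilin Sh3gl2 (1.82), the dynamin Dnm3 (1.39) and the active zone protein Erc2 (1.15) also rose. The limma adjusted p of these 7 was 0.0307 to 0.0491. Slc18a3, the vesicular acetylcholine transporter, fell by 1.14 on that scale (limma adjusted p = 0.0428). The lowest differences were those of Sncg, a synuclein, at -2.26, of Slc18a2, the vesicular monoamine transporter of neurons, at -2.13, and of Unc13c, a Munc13 priming factor, at -1.90. Unc13c was not well above background on 1 P2 array, and none of the 3 passed (limma adjusted p = 0.0545, 0.0738 and 0.189). In the single arrays at P2, 50 of the 77 were lower in the knockdown than in its control, against 45.7% of all tested genes. With miR-17, 50 of the 77 were higher, against 48.5%.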
